A study of Sus scrofa with 12 samples.

Results

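The genes described here belong to the cholesterol synthesis pathway, as measured by RNA-seq in the jejunum, the middle segment of the small intestine, of 12 piglets. The 8 genes listed for this account were HMGCS1, SQLE, FDFT1, IDI1, INSIG1, LSS, DHCR7 and SREBF2, and a gene was taken where the expression table carried its symbol, with rows of the same symbol summed. By that rule 5 of the 8 were found among 17049 gene names, and these 5 are called the members below: HMGCS1, SQLE and FDFT1 with 2 loci each, and INSIG1 and DHCR7 with 1 locus each. IDI1 and LSS were present under an Ensembl gene identifier only. They are described among the other enzymes of the pathway, and SREBF2 was not analysed here. None of the members found is a cholesterol uptake gene, so uptake is described from a separate list.

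The study compared 4 groups of 3 piglets. Sucking piglets were sampled at 21 days of age, the day of weaning, and weaned piglets at 28 days, 7 days after weaning. Both ages were taken from control sows and from sows given 300 mg/kg resveratrol, a plant polyphenol, in a corn and soybean meal diet from early gestation through lactation, so that the exposure was through the sow, and piglets were cross-fostered between sows of the same diet. Age and weaning cannot be told apart in this design. The 3 libraries of a group came from separate piglets, and which sow each one came from is not given in the sources used here. For the control piglets, the study methods state that a male was taken from each litter at both ages. Control sucking and weaned piglets may therefore share litters, and the main tests did not pair them. Values are FPKM, fragments scaled to exon length and to the mapped total of each library, so that levels can be compared between genes. FPKM carry no read counts, so the number of reads behind each value is unknown.

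Cells make cholesterol from acetyl-CoA. HMGCS1 acts early in the route to mevalonate, and MVK, PMVK and IDI1 carry mevalonate on to the isoprenoid units. FDFT1 joins these units into squalene, SQLE oxidises squalene, LSS closes the ring to give lanosterol, and DHCR7 acts at the end of the route. When sterol is scarce, the transcription factor SREBP-2 is processed and switches on most of these genes. INSIG1 holds this system back in the endoplasmic reticulum when sterol is plentiful and is itself a target of it. In the small intestine the epithelium also takes up cholesterol from bile and food through NPC1L1 and returns part of it through ABC transporters.

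The second and the third resveratrol sucking piglets had the lowest median correlation with the other libraries, the third by a small margin. The median Pearson correlation with the other 11 libraries, over 12886 genes on the log2(FPKM + 1) scale, was 0.881 for the second and 0.906 for the third sucking piglet of the resveratrol litters, and 0.912 to 0.938 for the other 10 libraries. Several results that involve the sucking piglets of the resveratrol litters are also given without these libraries, an alternative added after seeing the data. In such fits 1 resveratrol sucking piglet remains, and its spread is taken from the other groups. Jejunal enterocyte markers (8 of 10 listed genes had a row) summed to 8222 to 20630 FPKM in control sucking piglets, 4085 to 9801 in control weaned piglets, 6694 to 11351 in resveratrol sucking piglets and 7449 to 11288 in resveratrol weaned piglets. Smooth muscle markers (5 of 6) summed to 148 to 621, 399 to 547, 644 to 3855 and 192 to 619 FPKM in the same order, with the highest value in the second resveratrol sucking piglet. Distal small intestine markers (4 of 5) summed to 73.0 to 8265, 6741 to 9961, 53.7 to 6380 and 94.9 to 24519 FPKM, dividing crypt cell markers (8 of 8) to 470 to 951, 373 to 1395, 411 to 1411 and 251 to 1287 FPKM, and lymphocyte markers (8 of 8) to 242 to 288, 220 to 366, 214 to 279 and 194 to 249 FPKM. The liver markers ALB and TTR were at or near 0, with sums of 0 to 2.01 FPKM over all 12 libraries. Enterocyte markers were present in every library. The distal markers differed widely between piglets of the same group, and their sum was above the enterocyte sum in 4 libraries, those of the first control sucking, the first and the third control weaned and the first resveratrol weaned piglets, so that the labelled jejunal position was not shown by these markers in each piglet.

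All 5 members were expressed in every piglet. INSIG1 had the highest mean level over the 12 libraries at 56.1 FPKM, followed by FDFT1 at 34.5, DHCR7 at 17.6, HMGCS1 at 16.4 and SQLE at 9.14 FPKM. LSS and IDI1 averaged 33.8 and 9.06 FPKM. The largest ratio between the highest and the lowest library was 6.87 for SQLE, followed by 6.59 for HMGCS1, 5.74 for INSIG1, 5.05 for FDFT1 and 3.77 for DHCR7. Most of this range lay between piglets of the same group rather than between groups. The SD within groups on the log2(FPKM + 1) scale was 0.74 for HMGCS1, 0.74 for SQLE, 0.71 for INSIG1, 0.65 for FDFT1 and 0.49 for DHCR7, where the median of all 12886 genes tested was 0.34. Among the 3363 genes in the members' range of mean FPKM the median SD was 0.31. HMGCS1 varied more between piglets of a group than 92.4% of these genes, and DHCR7, the steadiest member, more than 78.7%.

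HMGCS1, which opens the committed part of the route, was at 29.0, 13.0 and 16.7 FPKM in control sucking piglets and at 24.0, 15.2 and 19.4 FPKM in control weaned piglets. With maternal resveratrol it was at 18.3, 12.3 and 4.40 FPKM before weaning and at 11.8, 6.18 and 26.0 FPKM after it. The 4 groups overlapped, and the lowest values came from 1 piglet in each resveratrol group.

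FDFT1, the squalene synthase, was at 47.4, 28.6 and 28.1 FPKM in control sucking piglets and 39.0, 39.7 and 26.3 FPKM in control weaned piglets. Resveratrol litters gave 34.0, 29.5 and 23.2 FPKM in sucking and 41.2, 12.7 and 64.1 FPKM in weaned piglets. The resveratrol weaned group alone held both the lowest and the highest of the 12 values.

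SQLE, the squalene epoxidase and a second control point of the route, was at 19.1, 5.86 and 8.70 FPKM in control sucking and 13.4, 14.9 and 7.05 FPKM in control weaned piglets. Resveratrol litters had 6.80, 12.3 and 2.78 FPKM in sucking and 6.58, 3.12 and 9.14 FPKM in weaned piglets. The groups overlapped in each comparison, although the group means were lower in both resveratrol groups (7.28 ± 4.77 and 6.28 ± 3.02 FPKM, SD, n = 3) than in the control groups (11.2 ± 6.96 and 11.8 ± 4.16 FPKM).

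INSIG1 was at 75.7, 51.4 and 46.2 FPKM in control sucking and 64.4, 72.6 and 35.3 FPKM in control weaned piglets. Its values were 102.7, 55.4 and 17.9 FPKM in resveratrol sucking and 48.3, 44.8 and 58.1 FPKM in resveratrol weaned piglets. Here the resveratrol sucking group spanned the full range of the 12 values.

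DHCR7 was at 13.2, 10.7 and 11.3 FPKM in control sucking piglets and 21.5, 24.3 and 16.03 FPKM in control weaned piglets. The control groups did not overlap, which held for none of the other 4 members. Under maternal resveratrol the values were 22.0, 15.6 and 8.61 FPKM in sucking and 22.5, 12.4 and 32.5 FPKM in weaned piglets, and there the groups overlapped.

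**Figure D1:**
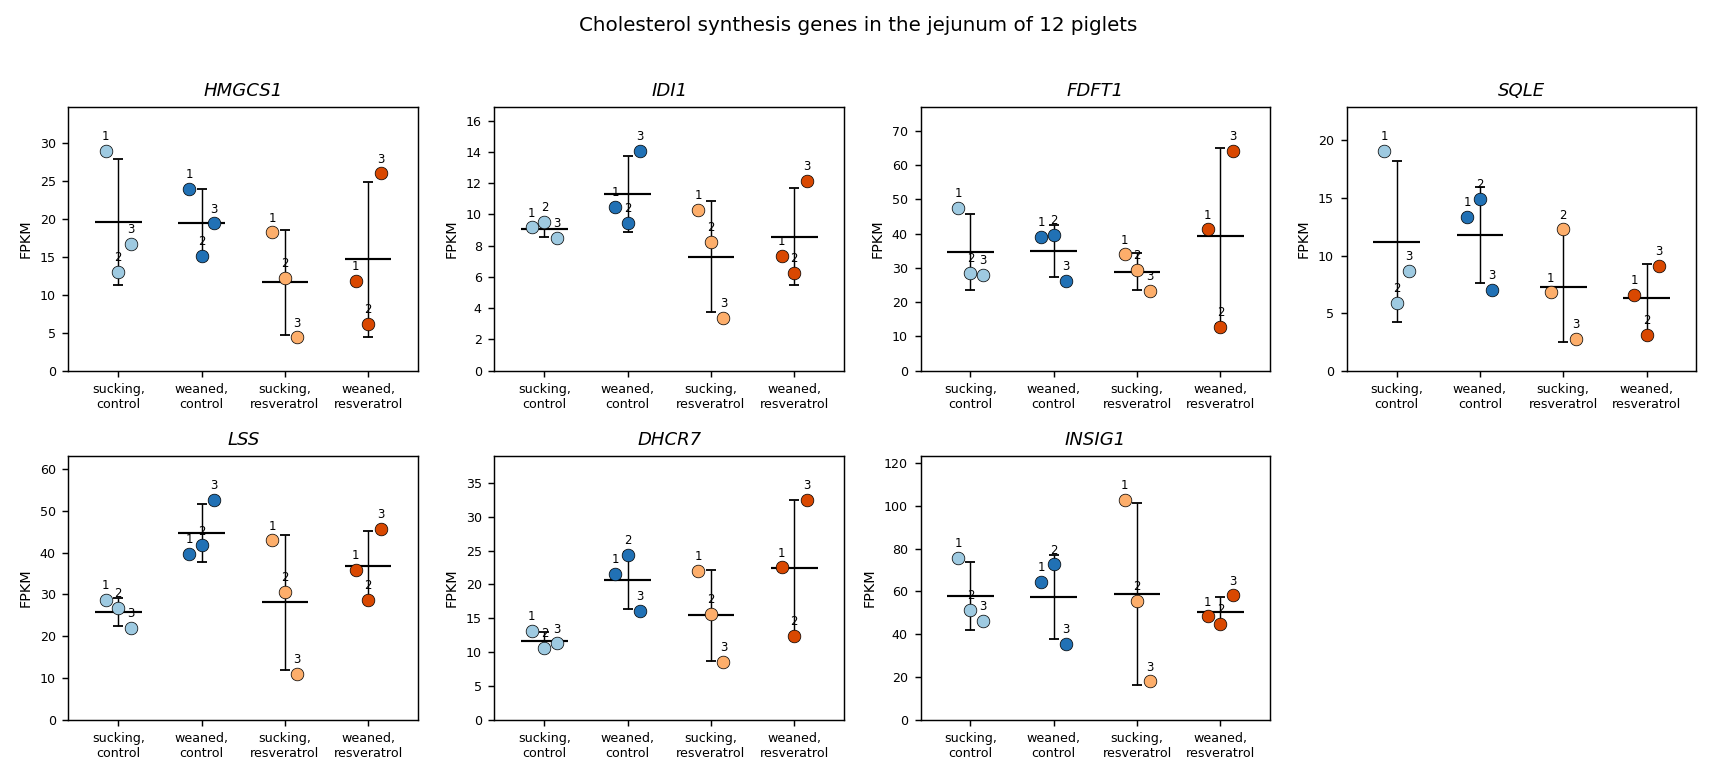
FPKM (y axis) of the 5 members and of IDI1 and LSS in each of the 4 groups (x axis), with 1 numbered point per piglet, a line at the group mean and bars of 1 SD (n = 3). DHCR7 and LSS show control groups that do not overlap, while the other panels show overlapping groups and piglets such as the third resveratrol sucking piglet at the bottom of most panels.

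The first comparison asked how weaning related to these genes in control litters. DHCR7 was 1.76 times as high in weaned as in sucking piglets (20.6 ± 4.22 against 11.7 ± 1.32 FPKM, SD, n = 3). The log2 difference was 0.75 (SE 0.20, 95% interval 0.29 to 1.22), with an unadjusted P of 0.0062 and an adjusted p of 0.15 in limma. The other members differed by 0.15 (SQLE), 0.05 (HMGCS1), 0.03 (FDFT1) and -0.04 (INSIG1) on the log2 scale, with unadjusted P of 0.73 to 0.91. Their intervals were wide, from -0.86 to 1.17 for SQLE and from -0.59 to 0.65 for FDFT1, so that differences within these ranges were not excluded. The standard of the study, an unadjusted P under 0.05 with a log2 fold change above 1 or below -1, was met by 0 of 5 members and by 3.31% of the 12611 genes tested. At an unadjusted P under 0.05 alone it was 1 of 5 members against 17.7% of all genes in limma, and 0 of 5 in a Ballgown-style linear model, which adds library size as a covariate and shares no variance between genes. There DHCR7 had a P of 0.074. Groups that do not overlap were seen for 1 of 5 members and for 25.3% of all genes, which is close to the background. The exact permutation test (two-sided) gave p = 0.1 for DHCR7, the smallest p that 3 against 3 piglets allow.

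In the resveratrol litters the same comparison gave wider intervals. DHCR7 averaged 22.5 ± 10.0 FPKM in weaned and 15.4 ± 6.71 FPKM in sucking piglets, a log2 difference of 0.51 (95% interval -0.49 to 1.499, unadjusted P 0.27). HMGCS1 differed by 0.28, FDFT1 by 0.18, INSIG1 by 0.09 and SQLE by -0.10, with unadjusted P of 0.65 to 0.88. In limma 0 of 5 members reached an unadjusted P under 0.05 (13.3% of 13013 genes did), 0 of 5 met the standard (4.75% did), and 0 of 5 had groups that do not overlap (21.8% did). Without the third resveratrol weaned piglet 4 of 5 members were lower after weaning, and without the third resveratrol sucking piglet 3 of 5 were. Without the second and the third resveratrol sucking piglets all 5 members were lower after weaning, among them INSIG1 with a log2 difference of -1.02 (unadjusted P 0.033). That value rests on 1 sucking piglet, whose spread was taken from the other groups, and its INSIG1 level of 102.7 FPKM was the highest of the series. The sign of the INSIG1 difference therefore depended on these libraries.

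Over both diets, with 6 sucking and 6 weaned piglets, the DHCR7 difference was 0.63 on the log2 scale (SE 0.25, 95% interval 0.08 to 1.18, unadjusted P 0.029, adjusted p 0.23). DHCR7 averaged 21.5 FPKM in weaned and 13.6 FPKM in sucking piglets, with overlapping groups, and the exact permutation test over 400 splits within diet gave p = 0.05. At an unadjusted P under 0.05 this was 1 of 5 members against 19.0% of 12886 genes, and 0 of 5 members met the standard against 1.42%. Leaving out 1 library at a time gave log2 differences of 0.46 to 0.81 for DHCR7, all positive, with 5 of the 12 fits at an unadjusted P under 0.05. The call was lost without any 1 of the second and the third control sucking, the first and second control weaned, the third resveratrol sucking and the first and the third resveratrol weaned piglets, with P of 0.051 to 0.077. Without both the second and the third resveratrol sucking piglets the difference was 0.34 (P 0.23), and in the Ballgown-style model it was 0.44 (P 0.41). The differences of the other members were 0.17 (HMGCS1), 0.11 (FDFT1), 0.03 (INSIG1) and 0.03 (SQLE). The enterocyte marker sum averaged lower in the control weaned than in the control sucking piglets and the distal sum higher, with overlapping ranges in both cases, and their part in the DHCR7 difference was not tested. In bulk tissue, fewer cells of a type and less RNA per cell cannot be told apart.

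The second comparison asked how maternal resveratrol related to these genes. Over both ages the members with the largest differences were SQLE and HMGCS1. SQLE averaged 6.78 FPKM in resveratrol and 11.5 FPKM in control litters, a log2 difference of -0.72 (SE 0.37, 95% interval -1.52 to 0.09, unadjusted P 0.075, adjusted p 0.45). HMGCS1 averaged 13.2 and 19.6 FPKM, a log2 difference of -0.70 (SE 0.37, 95% interval -1.51 to 0.12, unadjusted P 0.086, adjusted p 0.46). The exact permutation test within age gave p = 0.11 for SQLE and p = 0.14 for HMGCS1. INSIG1 differed by -0.19, FDFT1 by -0.15 and DHCR7 by 0.16, with unadjusted P of 0.54 to 0.65. In limma 0 of 5 members had an unadjusted P under 0.05 (12.3% of all genes did), and 0 of 5 met the standard (0.939% did).

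Both differences moved with single libraries. For SQLE the log2 difference over both ages ran from -0.93 to -0.48 when 1 library was left out, and 4 of the 12 fits passed an unadjusted P of 0.05. For HMGCS1 it ran from -0.94 to -0.43, and 2 of the 12 fits passed. Without the second and the third resveratrol sucking piglets the differences were -0.67 (P 0.12) for SQLE and -0.30 (P 0.47) for HMGCS1. The SQLE difference was thus of similar size without them, while that of HMGCS1 was smaller.

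At 21 days the log2 differences between resveratrol and control sucking piglets were -0.81 for HMGCS1, -0.59 for SQLE, -0.26 for INSIG1, -0.23 for FDFT1 and 0.28 for DHCR7, with unadjusted P of 0.14 to 0.66. Of the members, 0 of 5 had an unadjusted P under 0.05 (13.3% of 13186 genes), 0 of 5 met the standard (4.47%) and 0 of 5 had groups that do not overlap (21.0%). Without the first resveratrol sucking piglet HMGCS1 met the standard at -1.21 (P 0.045), and without the third DHCR7 stood at 0.63 (P 0.035). Without both the second and the third the HMGCS1 difference was -0.02.

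At 28 days the differences were -0.85 for SQLE (95% interval -1.77 to 0.08, unadjusted P 0.067), -0.58 for HMGCS1, -0.13 for INSIG1, -0.08 for FDFT1 and 0.04 for DHCR7. Here 0 of 5 members had an unadjusted P under 0.05 (10.2% of 12380 genes), 0 of 5 met the standard (1.81%) and 0 of 5 had groups that do not overlap (17.3%). Without the third resveratrol weaned piglet both SQLE (-1.13, P 0.028) and HMGCS1 (-1.08, P 0.015) met the standard, and without the third control weaned piglet SQLE did (-1.15, P 0.024).

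Whether the weaning difference itself depended on maternal diet was tested as an interaction over the 12 libraries. The interaction was 0.23 for HMGCS1, 0.15 for FDFT1, 0.13 for INSIG1, -0.25 for DHCR7 and -0.26 for SQLE on the log2 scale, with SE of 0.51 to 0.74 and unadjusted P of 0.64 to 0.86. In limma 0 of 5 members had an unadjusted P under 0.05 (13.7% of all genes), and 0 of 5 met the standard (7.76%). The 95% interval of the DHCR7 interaction was -1.35 to 0.86, so that the weaning difference of DHCR7 was not shown to differ between the litters, nor to be alike. Without the second and the third resveratrol sucking piglets the interaction was -0.56 for HMGCS1, -0.09 for FDFT1, -0.98 for INSIG1, -0.82 for DHCR7 and -0.35 for SQLE. The signs for HMGCS1, FDFT1 and INSIG1 thus depended on these libraries. For LSS the interaction was -0.22, and -1.01 without them. These values rest on 1 resveratrol sucking piglet.

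**Figure D2:**
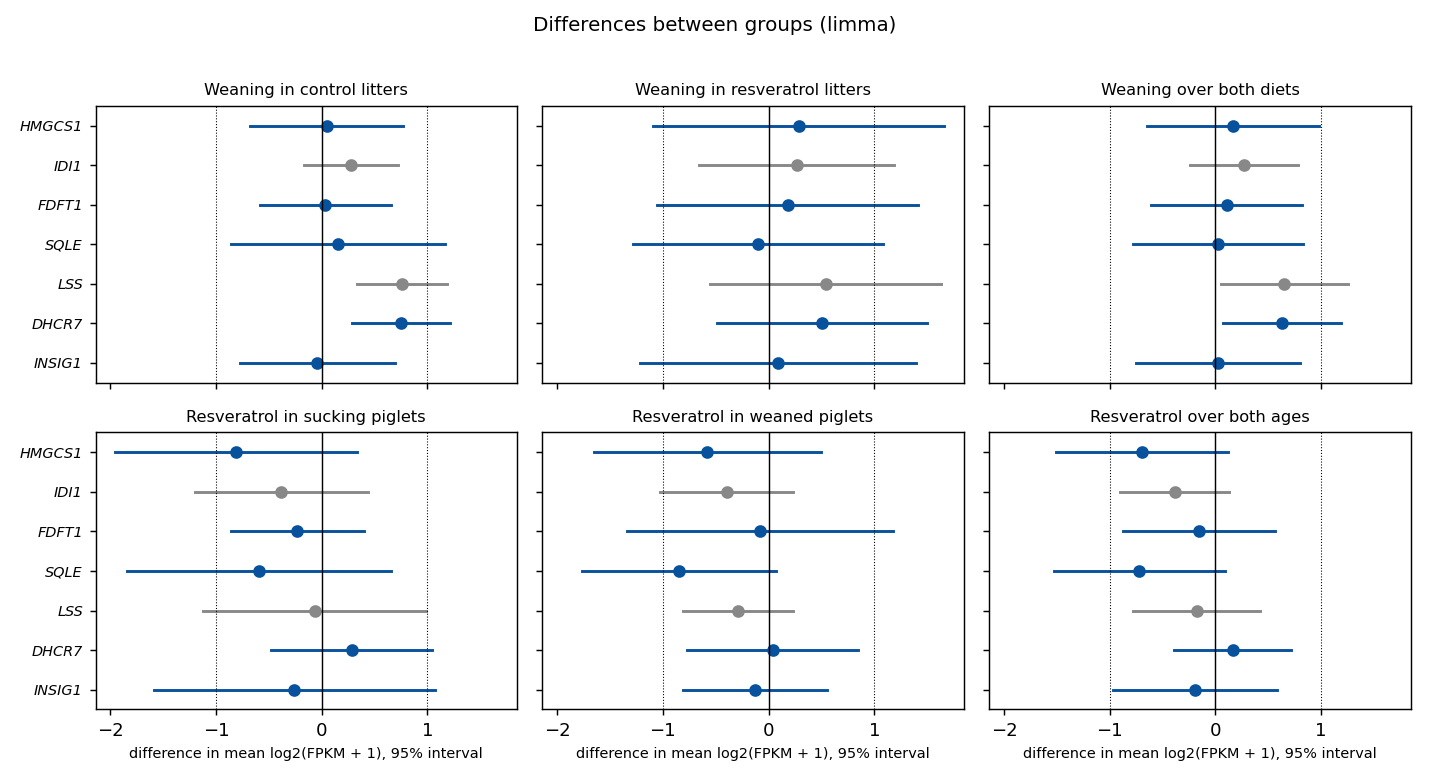
Differences in mean log2(FPKM + 1) (x axis) with 95% intervals from limma for the 5 members (blue) and for IDI1 and LSS (grey), for 3 weaning comparisons (weaned minus sucking, upper row) and 3 resveratrol comparisons (resveratrol minus control, lower row); dotted lines mark -1 and 1. The DHCR7 and LSS intervals lie above 0 in control litters and over both diets, and all other intervals include 0.

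The members differed most between individual piglets, and they did so together. In the third resveratrol sucking piglet 0 of 5 members were above their mean over the 12 libraries, with a mean z-score (SDs from a gene's mean over the 12 libraries) of -1.72, and in the second resveratrol weaned piglet 0 of 5 were, with a mean z-score of -1.27. In the third resveratrol weaned piglet all 5 members were above their mean (z-score 1.00), as they were in the first and second control weaned piglets (0.70 and 0.69). The first control sucking piglet had 4 of 5 above their mean (0.82), with SQLE and HMGCS1 at the highest level of the series. The piglets with the lowest mean z-scores (-1.72 and -1.27) came from resveratrol litters, 1 at each age. The second control sucking piglet also had 0 of 5 members above their mean, with a mean z-score of -0.43, the lowest among the control libraries. Piglets with high values were found in both diets.

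Over the 12 libraries Pearson's r between pairs of members was 0.45 to 0.80 and Spearman's rho 0.42 to 0.73, with a median r of 0.67 over the 10 pairs. A permutation test with Benjamini-Hochberg adjustment over the 10 pairs gave 6 pairs under 0.05 by r and 5 by rho. The highest r was that of HMGCS1 and SQLE at 0.80 (permutation p = 0.0017, adjusted 0.017; rho 0.71, p = 0.012, adjusted 0.039). HMGCS1 and FDFT1 had an r of 0.75 (p = 0.0054, adjusted 0.027; rho 0.59, p = 0.046, adjusted 0.066). SQLE and DHCR7 had the lowest r at 0.45 (permutation p = 0.14, adjusted 0.14; rho 0.47, p = 0.13, adjusted 0.14). After the group means were subtracted, r within groups was 0.46 to 0.87, with a median of 0.76, so that the relation was as large within the groups. Without the 2 libraries farthest from the median of the first gene of a pair, r was 0.22 to 0.71 with a median of 0.46. For HMGCS1 and SQLE it was 0.46 without the third resveratrol sucking and the second resveratrol weaned piglet. For HMGCS1 with INSIG1 (0.28) and with DHCR7 (0.22) the relation rested on these same libraries. SQLE with FDFT1 stood at 0.64 without the first control sucking and the third resveratrol sucking piglet, and FDFT1 with DHCR7 at 0.63 without the second and the third resveratrol weaned piglets.

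The same 2 piglets were low for the rest of the pathway. Of the 20 enzymes of cholesterol synthesis with a row, 4 are members (HMGCS1, SQLE, FDFT1 and DHCR7). Of the 16 other enzymes, the third resveratrol sucking piglet had the lowest value of the series for 11, where 13.0% of all 12886 genes were lowest in this library, and their summed level there was 124 FPKM. The second resveratrol weaned piglet had the lowest value for 4 of the 16 (11.9% of all genes) and a sum of 232 FPKM. The other 10 libraries had sums of 263 to 436 FPKM over the 16 enzymes, the highest in the first control weaned piglet. In the third resveratrol sucking piglet the enterocyte marker sum was 6915 FPKM and the smooth muscle sum 644 FPKM, and in the second resveratrol weaned piglet they were 7449 and 440 FPKM. These sums lay within the ranges of the other libraries. Of the 8 dividing crypt cell markers, 6 had their lowest value of the series in the third resveratrol sucking piglet (MKI67, TOP2A, CCNB1, CDK1, PCNA and MCM2), and 0 of 8 did in the second resveratrol weaned piglet. The part of these markers in the low enzyme levels was not tested.

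**Figure D3:**
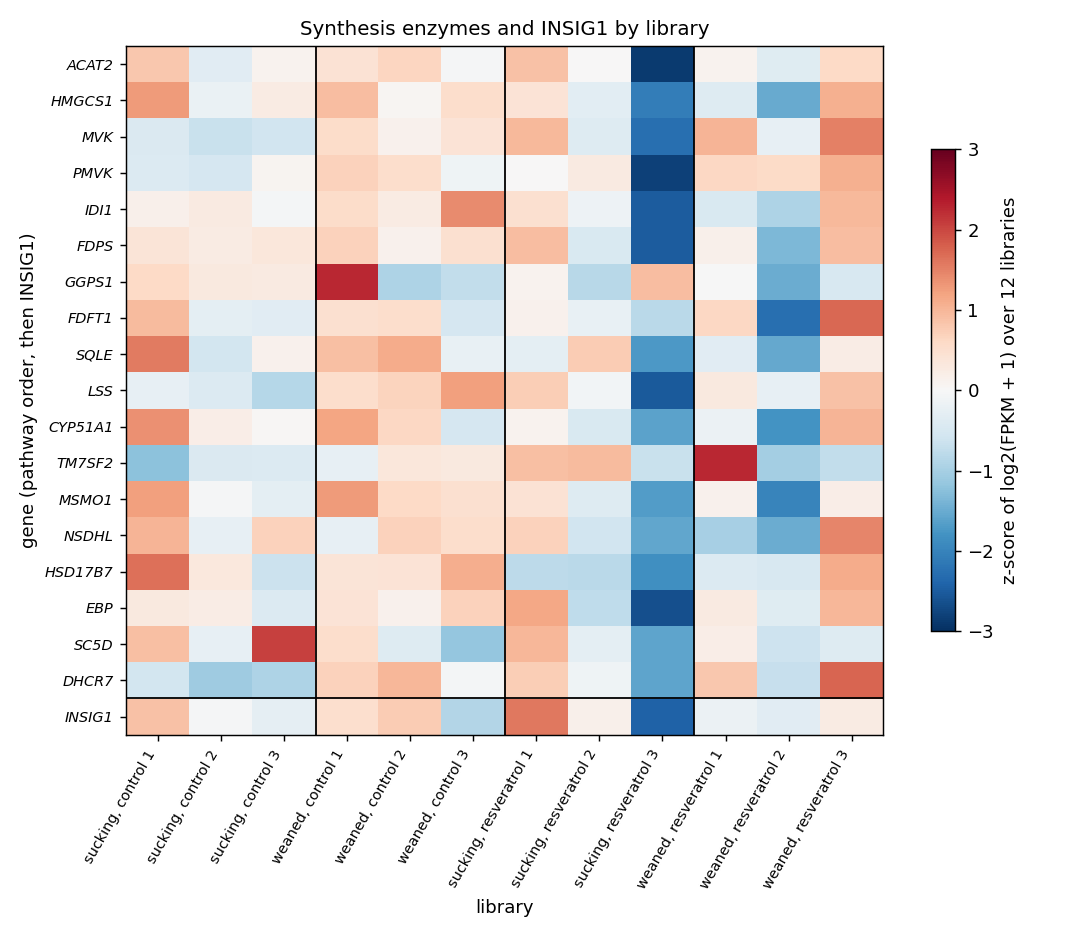
Z-scores of log2(FPKM + 1) over the 12 libraries (colour, blue low and red high) for 18 enzymes of cholesterol synthesis in pathway order and INSIG1 (y axis), by library (x axis), with lines between the groups. The column of the third resveratrol sucking piglet is blue for nearly all genes, with 13 of the 18 enzymes at their lowest value, and that of the second resveratrol weaned piglet for most.

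The other enzymes were taken from a list of the pathway, of which 16 further genes were tested, IDI1 and LSS included. In control litters LSS was at 28.6, 26.8 and 22.1 FPKM in sucking and 39.6, 41.7 and 52.6 FPKM in weaned piglets. The groups did not overlap, and the log2 difference was 0.76 (SE 0.18, 95% interval 0.34 to 1.19, unadjusted P 0.0037, adjusted p 0.13). With all 12 libraries in 1 fit the P was 0.073. IDI1 was at 9.16, 9.50 and 8.48 FPKM in sucking and 10.5, 9.45 and 14.1 FPKM in weaned piglets, a difference of 0.28 (P 0.18). MVK, the mevalonate kinase, averaged 1.70 and 2.60 FPKM, with groups that did not overlap and a log2 difference of 0.42 (P 0.044). None of the 6 fits without 1 library kept that P of MVK under 0.05 (P 0.059 to 0.12). Of the 16 enzymes 11 were higher after weaning, 2 with an unadjusted P under 0.05 where 17.7% of all genes had one, and their median difference was 0.17, where the median of all genes was -0.02. None met the standard.

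After maternal resveratrol LSS was at 42.9, 30.6 and 10.9 FPKM in sucking and 35.8, 28.7 and 45.7 FPKM in weaned piglets, a difference of 0.54 (P 0.28). IDI1 was at 10.3, 8.24 and 3.40 FPKM before and 7.35, 6.25 and 12.1 FPKM after weaning, a difference of 0.26 (P 0.52). Of the 16 enzymes 13 were higher after weaning, with a median of 0.26 and 0 at an unadjusted P under 0.05 in limma (13.3% of all genes). The median of all genes was -0.16 in this comparison and 0.01 after median-of-ratios rescaling, which brings the typical gene to the same level in each library, a shift of 0.17, and the enzyme median moved with it to 0.46. The count depended on the third resveratrol sucking piglet: without it 5 of 16 were higher (median -0.11), and without the second and the third it was 2 of 16 (median -0.39).

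Over both diets 12 of the 16 enzymes were higher after weaning (median 0.23, all genes -0.10). LSS (0.65, SE 0.27, P 0.035, adjusted p 0.23), PMVK, the phosphomevalonate kinase (0.51, P 0.039), and MVK (0.51, P 0.048) had an unadjusted P under 0.05, which is 3 of 16 where 19.0% of all genes had one. These calls were lost in the Ballgown-style model (P 0.31 to 0.56), and of the 12 fits without 1 library 5 kept that of PMVK and 2 that of MVK. MVK also lost it with the replicate number as a block (P 0.0504). Leaving out the second and the third resveratrol sucking piglets put PMVK at 0.32 (P 0.051) and MVK at 0.16 (P 0.41). Without the third resveratrol sucking piglet 8 of 16 were higher. LSS was then at 0.38 (P 0.042), and at 0.26 (P 0.18) without the second and the third. Of the 12 fits without 1 library, 7 gave LSS an unadjusted P under 0.05, and the calls were lost without any 1 of the second and the third control sucking, the third control weaned and the first and the third resveratrol weaned piglets (0.57 to 0.67, P 0.052 to 0.080).

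Over both ages 13 of the 16 enzymes were lower in the resveratrol litters, with a median difference of -0.28 where that of all genes was 0.03. MSMO1, a sterol methyl oxidase that acts after LSS, averaged 19.6 FPKM in resveratrol and 34.4 FPKM in control litters, a log2 difference of -0.88 (P 0.039, adjusted p 0.38). HSD17B7, the sterol ketoreductase of the same series of steps, averaged 6.17 and 8.79 FPKM, a difference of -0.47 (P 0.036, adjusted p 0.38). These 2 of 16 with an unadjusted P under 0.05 stand beside 12.3% of all genes. For each, 6 of the 12 fits without 1 library kept the call, and the Ballgown-style model did not (P 0.14 and 0.096). HSD17B7 also lost it with the replicate number as a block (P 0.053). With the second and the third resveratrol sucking piglets left out, MSMO1 was at -0.49 (P 0.28) and HSD17B7 at -0.39 (P 0.15). IDI1 differed by -0.39 (P 0.13) and LSS by -0.18 (P 0.53). None met the standard. Without the third resveratrol sucking piglet 8 of 16 enzymes were lower (median -0.06), and without the second and the third 6 of 16 were (median 0.10). The majority of lower enzymes thus depended on these libraries.

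Of the other genes of sterol sensing and SREBP processing 5 were tested. None met the standard in any comparison.

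Cholesterol uptake, trafficking and esterification were described from a separate list, of which 13 genes were tested. MYLIP, a ubiquitin ligase induced by the sterol sensor LXR, was at 6.15, 8.23 and 8.03 FPKM in control sucking, 5.57, 5.70 and 5.47 FPKM in control weaned, 9.12, 12.0 and 15.1 FPKM in resveratrol sucking and 9.75, 8.63 and 8.19 FPKM in resveratrol weaned piglets. At each age the resveratrol and the control group did not overlap, and the higher values were those of the resveratrol litters. Such groups were seen for 4 of 13 genes of the list in sucking piglets (21.0% of all genes) and 3 of 13 in weaned piglets (17.3%). Over both ages MYLIP averaged 10.5 FPKM in resveratrol and 6.52 FPKM in control litters, a log2 difference of 0.60 (SE 0.14, unadjusted P 0.0010, adjusted p 0.15), short of the standard in size. The exact permutation test gave p = 0.005, the smallest that 400 splits allow. Without the second and the third resveratrol sucking piglets the difference was 0.42 (P 0.013).

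NPC1L1, the intestinal cholesterol importer, was at 46.0, 48.8 and 30.5 FPKM in control sucking and 47.4, 55.4 and 34.0 FPKM in control weaned piglets, a log2 difference of 0.12 (P 0.64). For the resveratrol litters the values were 34.7, 17.8 and 39.2 FPKM in sucking and 74.4, 45.3 and 57.8 FPKM in weaned piglets. There the groups did not overlap, and the difference was 0.98 (SE 0.34, 95% interval 0.18 to 1.77, unadjusted P 0.022, adjusted p 0.34), just short of the standard. It met the standard after median-of-ratios rescaling (1.19, P 0.011), and was 0.42 (P 0.65) in the Ballgown-style model. Without the second resveratrol sucking, the first resveratrol weaned or the third resveratrol weaned piglet the P was 0.063, 0.073 and 0.051, and without both the second and the third sucking piglets the difference was 0.72 (P 0.084). The difference between the litters in the NPC1L1 weaning effect was 0.85 (SE 0.45, P 0.084), 1.05 (P 0.039) after rescaling and 0.60 without those sucking piglets. The smooth muscle marker sum also did not overlap between the resveratrol groups (644 to 3855 FPKM in sucking and 192 to 619 FPKM in weaned piglets). Taken singly, DES, CNN1 and ACTG2 overlapped between these groups, while ACTA2 and TAGLN did not. The sum was highest in the second resveratrol sucking piglet, which had the lowest NPC1L1 value. The part of these markers in the NPC1L1 difference was not tested.

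NPC2, which passes cholesterol out of lysosomes, was at 57.2, 57.0 and 35.1 FPKM in control sucking and 73.3, 64.2 and 46.4 FPKM in control weaned piglets. Resveratrol litters gave 70.3, 89.4 and 102.8 FPKM in sucking and 62.0, 51.6 and 38.4 FPKM in weaned piglets, without overlap and with the lower values after weaning. The weaning differences were 0.30 in control and -0.79 in resveratrol litters, and the interaction of -1.09 met the standard (SE 0.38, unadjusted P 0.014, adjusted p 0.28). Of the 12 fits without 1 library 8 kept the standard, and it was short in size, at -0.97 to -0.86, without the third control sucking, the first control weaned, the third resveratrol sucking or the third resveratrol weaned piglet. After median-of-ratios rescaling it was -0.89 (P 0.033), also short in size, and in the Ballgown-style model -0.50 (P 0.35). Without the second and the third resveratrol sucking piglets it was -0.79. The smooth muscle marker sum was also lower, without overlap, in the resveratrol weaned (192 to 619 FPKM) than in the resveratrol sucking piglets (644 to 3855 FPKM). Taken singly, DES, CNN1 and ACTG2 overlapped between the resveratrol groups, while ACTA2 and TAGLN did not. In control litters the smooth muscle sums overlapped (148 to 621 FPKM in sucking and 399 to 547 FPKM in weaned piglets). Their part in the NPC2 differences was not tested. Over the 13 genes of this list the median difference was 0.06 in control and -0.37 in resveratrol weaning, where that of all genes was -0.02 and -0.16. Groups that do not overlap were seen for 2 of 13 in control weaning (25.3% of all genes) and 6 of 13 in resveratrol weaning (21.8%).

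Of 8 genes of cholesterol efflux, APOE and APOA1 met the standard in at least 1 comparison. In single comparisons it was met by 0.939% to 7.76% of all genes, and the share over any comparison was not computed. APOE, an apolipoprotein that carries cholesterol from many cell types, was at 63.8, 59.7 and 30.1 FPKM in control sucking and 104.7, 190.5 and 77.5 FPKM in control weaned piglets, without overlap. By the standard it rose after weaning (log2 difference 1.23, SE 0.40, unadjusted P 0.017, adjusted p 0.20), but not without the third control sucking piglet (0.90, P 0.053), without the second control weaned piglet (0.88, P 0.050) or in the Ballgown-style model (P 0.12). Resveratrol litters showed 109.1, 75.1 and 40.4 FPKM in sucking and 44.3, 68.7 and 59.1 FPKM in weaned piglets, a difference of -0.29. Among weaned piglets APOE was lower in the resveratrol litters by the standard (-1.02, P 0.021, adjusted p 0.41), and the interaction was -1.52 (SE 0.60, P 0.026, adjusted p 0.31). Both APOE comparisons use the control weaned piglets, whose second library held the highest value. Without that piglet the difference among weaned piglets was -0.66 (P 0.051) and the interaction -1.17 (P 0.069), and without the first resveratrol weaned piglet they were -0.85 (P 0.064) and -1.35 (P 0.060). The interaction also fell short of the standard without the third control sucking (-1.19, P 0.069) or the first resveratrol sucking piglet (-1.20, P 0.068), and the difference among weaned piglets after median-of-ratios rescaling (-0.92, P 0.038). The Ballgown-style model gave a P of 0.056 and 0.087. Without the second and the third resveratrol sucking piglets the interaction was -2.17, a value that rests on 1 resveratrol sucking piglet, the highest of its group at 109.1 FPKM.

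APOA1, the main apolipoprotein of HDL and a product of enterocytes, averaged 3868 FPKM in weaned and 7441 FPKM in sucking piglets over both diets, a log2 difference of -1.19 (SE 0.52, unadjusted P 0.042, adjusted p 0.25). The standard was not met after median-of-ratios rescaling (-1.07, P 0.070), with the replicate number as a block (P 0.052), in the Ballgown-style model (-0.67, P 0.54) or without the second and the third resveratrol sucking piglets (-0.80, P 0.25), and 4 of the 12 fits without 1 library kept an unadjusted P under 0.05. The ranges were 702 to 8670 and 3586 to 10667 FPKM and overlapped. The enterocyte marker sum was 4085 to 11288 FPKM in the 6 weaned and 6694 to 20630 FPKM in the 6 sucking piglets, and its part in the APOA1 difference was not tested. ABCA1, which exports cholesterol to APOA1 and is induced by the sterol sensor LXR, was at 2.20, 4.39 and 4.08 FPKM in control sucking and 2.35, 1.06 and 0.967 FPKM in control weaned piglets. With maternal resveratrol the values were 3.41, 3.77 and 3.32 FPKM in sucking and 3.54, 1.48 and 1.51 FPKM in weaned piglets. In each diet the first weaned piglet lay within the sucking range and the other weaned piglets below it. Over both diets the ABCA1 difference was -0.73 on the log2 scale (SE 0.21, 95% interval -1.20 to -0.26, unadjusted P 0.0055, adjusted p 0.14, exact permutation p = 0.03), short of the standard in size. It held the same sign in the 12 fits that left out 1 library, at -0.87 to -0.66, each with an unadjusted P under 0.05. It was -0.72 (P 0.031) without the second and the third resveratrol sucking piglets, and -0.53 (P 0.22) in the Ballgown-style model.

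**Figure D4:**
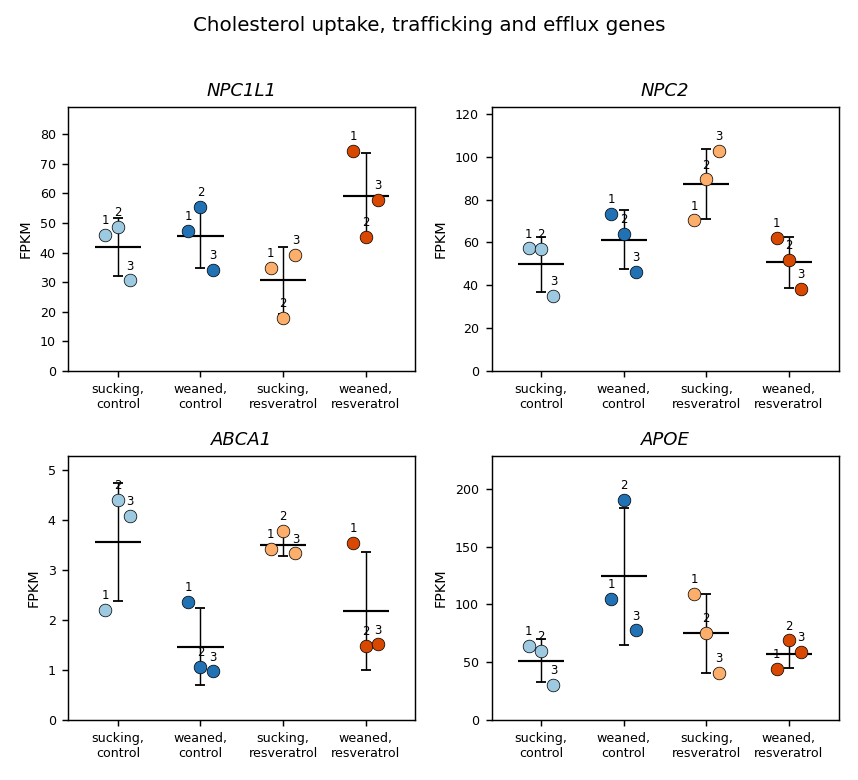
FPKM (y axis) of 4 genes of cholesterol uptake, trafficking and efflux in the 4 groups (x axis), with 1 numbered point per piglet, a line at the group mean and bars of 1 SD (n = 3). The APOE groups of the control litters do not overlap, and the NPC1L1 groups before and after weaning overlap in control but not in resveratrol litters.

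The genes whose level over the 12 libraries most resembled the mean z-score of the 5 members were sought among 11429 other genes with a mean of at least 1 FPKM. Among the 10 with the highest Pearson's r were enzymes of the same pathway, namely CYP51A1, the lanosterol demethylase (r = 0.91), MSMO1 (0.88), ACAT2, the cytosolic acetoacetyl-CoA thiolase (0.87), and FDPS, the farnesyl diphosphate synthase (0.86). Also among them were CUL5 (0.88), EFNB2 (0.84) and 3 genes known only by an identifier, the highest of which was ENSSSCG00000027363 (0.92). Of the 16 other enzymes 12 were within the first 100 of the 11429 genes, and GGPS1 (0.13), TM7SF2 (0.18) and SC5D (0.48) were among those that were not. NPC1L1 (0.20) and ABCA1 (-0.21) did not follow the members, and MYLIP had the lowest r of the listed genes at -0.58. These values describe 12 libraries that share the preparation and the 2 low piglets described above.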

How the data were processed

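Jejunal RNA of 12 piglets (4 groups of 3) was sequenced as paired-end libraries by the authors. Per the labels and the study methods, reads were aligned to the Ensembl pig genome (Sscrofa10.2 in the submitters' processing notes, which name Bowtie 0.12.2, HISAT2 2.0 and StringTie 1.3.0, while the methods name TopHat), and StringTie with Ballgown gave the deposited FPKM. The methods name no further scaling of the libraries, replicates were not pooled, and no value column was left unmatched. FPKM hold no counts, so the reads behind each value are unknown. The study's supplement gives read totals of the control libraries. The share of uniquely mapped reads there was lower in weaned than in sucking piglets. The part of this share in the weaning differences was not tested. That supplement does not cover the resveratrol libraries. Loci of 1 gene name were summed, and 17650 of 41264 loci had no name and were left out.

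Tests were made with limma 3.58.1 (trend, R 4.3.3) on log2(FPKM + 1), over genes with a mean of at least 0.5 FPKM. Fits used the 6 libraries compared, or all 12 for the interaction and for comparisons over both diets or ages, with Benjamini-Hochberg adjustment over all genes tested. The fold changes are on that scale, which understates low genes. Exact permutation tests were two-sided. Correlations used 100000 permutations. The code was tested on simulated data. P-values measure the spread between these piglets only.

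The members and lists were chosen with earlier results of these data known. Named were the listed genes, NPC1L1, ABCA1, any list gene past the standard in a comparison, and the 10 genes most like the members, except that some genes the rule names are not reported here. MVK, PMVK, MSMO1, HSD17B7 and MYLIP were named after their values were seen. IDI1 and LSS were matched through the symbol paired with their Ensembl identifier. ABCA1 values are those of its named row. Alternatives were another pseudocount, filter, scaling, variance model, block, design and locus choice, and leaving out each library.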

Additional observations from a re-analysis of the deposited data

Results flagged for a closer look

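The estimated weaning differences of NPC2 (0.30 in control and -0.79 in resveratrol litters) and APOE (1.23 and -0.29) had opposite signs in the litters. The NPC2 difference in control and the APOE difference in resveratrol litters had an unadjusted P of 0.28 and 0.46 in limma. For both genes a test of the interaction itself was past the standard of the study. For NPC2, the lysosomal cholesterol carrier, the weaning difference in resveratrol litters minus that in control litters was -1.09 on the log2 scale (SE 0.38, unadjusted P 0.014, adjusted p 0.28 in limma). It was negative in each of the 12 fits that left out 1 library (-1.27 to -0.86), 8 of them past the standard, and was -0.50 (P 0.35) in the Ballgown-style model. The smooth muscle marker sum was also lower, without overlap, in the resveratrol weaned (192 to 619 FPKM) than in the resveratrol sucking piglets (644 to 3855 FPKM). Taken singly, DES, CNN1 and ACTG2 overlapped between these groups, while ACTA2 and TAGLN did not. The part of these markers in the NPC2 interaction was not tested. For APOE the same interaction was -1.52 (SE 0.60, unadjusted P 0.026, adjusted p 0.31 in limma). It was negative in the same 12 fits (-1.91 to -1.17), 8 of them with an unadjusted P under 0.05, and had a P of 0.087 in the Ballgown-style model. Of all 12886 genes, 1000 met the standard for this interaction, and 0 passed an adjusted p of 0.05.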

How the results depend on the processing

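Of the members, DHCR7 in control weaning and DHCR7 over both diets had an unadjusted P under 0.05. The first lost it under 2 of 16 alternatives and the second under 9 of 22. Of the 622 values of the members that were not under 0.05, 12 came under it with the same sign, and 91 changed sign without coming under it. The other named genes had 27 differences under 0.05, which lost it under 144 of 513 alternatives. A reversal was seen for INSIG1 in resveratrol weaning (-1.02) and for LSS in sucking piglets under resveratrol (0.72), both without the libraries W_Res2 and W_Res3, an alternative added after seeing the data. That alternative also gave 1 member past the standard (INSIG1). The DHCR7 difference in control litters lost an unadjusted P of 0.05 in the Ballgown-style linear model (P 0.074) and with all 12 libraries in 1 fit (P 0.058), and its adjusted p was 0.12 to 0.38 over all alternatives. The cause of these shifts was not tested.

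Counts of genes past the standard, in the order weaning in control litters, weaning in resveratrol litters, difference between litters, resveratrol in sucking piglets, in weaned piglets, weaning over both diets and resveratrol over both ages, were 418, 618, 1000, 590, 224, 183 and 121. With a pseudocount of 0.1 they were 853, 1163, 1324, 1008, 488, 591 and 379. With a minimum mean of 5 FPKM, which tests fewer genes, they were 227, 245, 364, 248, 122, 118 and 76. With the Ballgown-style model they were 205 in resveratrol weaning, 315 for the difference, 227 in sucking and 148 in weaned piglets. Leaving out 1 library gave 388 to 1049, 633 to 1367, 394 to 944 and 222 to 426 for the same comparisons. The count moved by over 1.5 times in resveratrol weaning without W_Res1 (1049), W_Res2 (388) or W_Res3 (928), for the difference without W_Con3 (633), in sucking piglets without W_Res1 (896) or W_Res3 (944) and in weaned piglets without PW_Res1 (426). Members past the standard were then 0 to 1 for resveratrol in sucking and 0 to 2 in weaned piglets, and 0 in the other comparisons. After median-of-ratios rescaling the share of higher calls went from 20.9% to 43.1% in resveratrol weaning, from 23.3% to 42.9% for the difference, from 66.8% to 56.7% and from 47.3% to 60.8% for resveratrol in sucking and weaned piglets, and from 51.9% to 69.4% for weaning over both diets.

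The replicate numbers are shared between groups, but same-numbered libraries did not deviate together (correlations -0.26 to 0.11). With the replicate number as a block, 444 genes met the standard in control weaning, 633 in resveratrol weaning, 1059 for the difference, 631 and 258 for resveratrol in sucking and weaned piglets, and 188 and 125 over both diets and ages, with 0 members in each. DHCR7 in control litters had a P of 0.012 under the block.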
